A study of Mus musculus with 24 samples.

Results

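Kupffer cells are the resident macrophages of the liver, and 10 of the 54733 genes measured here are widely used to mark them. They were chosen by gene name and are *Clec4f*, *Adgre1*, *Cd5l*, *Marco*, *Timd4*, *Vsig4*, *Csf1r*, *C1qa*, *C1qb* and *C1qc*. All 10 were listed in every library and all 10 had a mean of at least 1 FPKM, the level required for a test. FPKM counts sequenced fragments relative to transcript length and library size, so levels can be compared between genes.

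The study deleted both RREs of *Bmal1*, the elements through which RORs activate and REV-ERBs repress this clock gene, and compared the homozygous mutant (ΔRRE) with the wild type (WT). Poly(A)-tailed RNA was sequenced from liver tissue of male C57BL/6 mice, with 2 WT and 2 ΔRRE libraries every 4 h from CT2 to CT22. That gives 12 WT and 12 ΔRRE libraries, which share strain, sex and tissue and differ in the deletion, carried in every cell of the mutant. The mutant was made by CRISPR-Cas9, and the study's methods use 1 mutant line where no other is named. Livers of the mutant and of the WT were taken in constant darkness, at projected circadian times (CT). Mice used for tissue RNA were 8 to 24 weeks old, and no narrower age was given for these libraries.

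The deleted element was checked first at its own gene. *Bmal1*, listed as *Arntl*, ranged from 0.0919 FPKM at CT10 to 13.2 FPKM at CT2 over the WT libraries, and from 2.096 to 4.21 FPKM over the ΔRRE libraries. It was the only gene whose 24-h rhythm differed between the genotypes after adjustment over all genes (limma, adjusted p = 0.0463). This call stood near the threshold: over the alternatives its adjusted p ran from 1.195e-05 with time point as a factor, where 4 genes were called, to 0.221 with 0.01 FPKM added, and it passed in 8 of the 31 in which it was tested. The tissue was hepatic by its markers, with albumin (*Alb*) between 18570 and 35760 FPKM and *Hnf4a* between 99.1 and 176 FPKM. Libraries summed to between 554170 and 624746 FPKM, and the number of reads behind single values was not used here.

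Kupffer cells line the sinusoids, take up bacteria, aged red cells and debris from portal blood, and are kept by signals from the neighbouring endothelial, stellate and parenchymal cells. Most of them descend from embryonic precursors and renew themselves locally, whereas macrophages that enter from blood monocytes carry other markers at first. *Clec4f* encodes a C-type lectin found in rodents nearly only on Kupffer cells, *Timd4* a phosphatidylserine receptor of the long-lived resident cells, *Vsig4* a complement receptor that captures bacteria, *Marco* a scavenger receptor for bacteria and particles, *Cd5l* a secreted protein that protects macrophages from apoptosis, *Adgre1* the F4/80 antigen, and *Csf1r* the receptor for the macrophage growth factors CSF1 and IL-34. *C1qa*, *C1qb* and *C1qc* encode the A, B and C chains of C1q, the recognition molecule of the classical complement pathway, which is made mainly by macrophages.

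The 3 C1q genes are neighbours on the minus strand of chromosome 4. In GENCODE M21 on GRCm38, *C1qb* spans chr4:136880129-136886187, *C1qc* chr4:136889804-136893065 and *C1qa* chr4:136895917-136898803, so that all 3 lie within 18675 bases. The other members are spread over the genome, with *Clec4f* on chromosome 6, *Adgre1* on 17, *Cd5l* on 3, *Marco* on 1, *Timd4* on 11, *Vsig4* on X and *Csf1r* on 18.

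Promoter sequence was found in the RefSeq table (GRCm38.p6) for 7 of the 10 genes. The 250 bases upstream of the RefSeq start are shown for 4 genes on different chromosomes whose levels moved together from library to library, as described further on. Each runs 5′ to 3′ on the strand of its gene, and capitals mark GAGGAA or its reverse complement TTCCTC, the core bound by PU.1, a transcription factor that macrophages require. *C1qb* is shown for chr4:136886201-136886450 and *Vsig4* for chrX:96293439-96293688, both on the minus strand, and *Cd5l* for chr3:87357631-87357880 and *Timd4* for chr11:46810549-46810798, both on the plus strand.
C1qb: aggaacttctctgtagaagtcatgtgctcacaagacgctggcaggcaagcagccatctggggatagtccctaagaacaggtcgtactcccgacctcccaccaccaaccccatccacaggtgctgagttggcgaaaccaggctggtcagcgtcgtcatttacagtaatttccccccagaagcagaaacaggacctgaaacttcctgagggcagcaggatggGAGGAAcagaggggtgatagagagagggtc
Vsig4: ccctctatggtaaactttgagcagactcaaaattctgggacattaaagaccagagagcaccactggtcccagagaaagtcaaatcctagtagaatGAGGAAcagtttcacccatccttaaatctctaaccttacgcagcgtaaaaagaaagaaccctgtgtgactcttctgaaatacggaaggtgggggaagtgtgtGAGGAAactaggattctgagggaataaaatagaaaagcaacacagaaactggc
Cd5l: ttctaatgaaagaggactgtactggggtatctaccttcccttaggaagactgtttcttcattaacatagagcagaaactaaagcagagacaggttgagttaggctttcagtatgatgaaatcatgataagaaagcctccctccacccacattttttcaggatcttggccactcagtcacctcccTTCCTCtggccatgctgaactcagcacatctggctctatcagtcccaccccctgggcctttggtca
Timd4: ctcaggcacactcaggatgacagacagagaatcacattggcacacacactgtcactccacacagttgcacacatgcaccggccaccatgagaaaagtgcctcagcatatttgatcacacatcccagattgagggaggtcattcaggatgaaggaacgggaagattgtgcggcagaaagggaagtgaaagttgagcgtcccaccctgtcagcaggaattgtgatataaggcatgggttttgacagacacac

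The core begins 30 bases before the start of *C1qb*, and at 155 and 53 bases before that of *Vsig4*. In *Cd5l* it lies on the opposite strand, with its first base on the printed strand 66 bases before the start, and the window of *Timd4* holds no match to these letters. Of the 7 promoters, 5 held the core on either strand (*Marco*, *Cd5l*, *C1qb*, *C1qc* and *Vsig4*), against 23.3% of the 32851 windows of the same length in the table. For *C1qc* and *Clec4f* the RefSeq start lies inside the span of the gene in GENCODE M21, so that 151 and 71 bases of their windows fall within it. The half-site AGGTCA (reverse complement TGACCT), bound by RORs, REV-ERBs and other nuclear receptors, was in 3 of the 7 (*C1qc*, *Clec4f* and *Timd4*) and in 14.0% of all windows. These matches describe the letters and were not set against any binding data.

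The members were expressed at moderate levels. By mean FPKM over all 24 libraries, *C1qa* was highest at 16.1 ± 5.81 (SD, n = 24), followed by *Cd5l* at 13.5 ± 5.54, *C1qb* at 12.99 ± 4.05, *Clec4f* at 12.3 ± 4.10 and *C1qc* at 11.998 ± 4.09. *Marco* (6.30 ± 7.42), *Vsig4* (5.49 ± 2.22), *Csf1r* (3.33 ± 1.18), *Adgre1* (1.84 ± 0.756) and *Timd4* (1.16 ± 0.601) followed. In this order, only the step from *Csf1r* to *Adgre1* was larger than the SD of both neighbours.

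All 10 genes varied several-fold between libraries. The summed level of the members ran from 28.6 to 155.7 FPKM, or from 48.0 to 281 TPM, the same values after every library is scaled to a common total. *Clec4f*, the most specific marker of the list, had its lowest, median and highest WT level at 5.10, 12.7 and 21.3 FPKM and its ΔRRE levels at 8.28, 11.8 and 22.0 FPKM. *Csf1r* was at 1.08, 4.04 and 6.22 FPKM in WT and at 1.97, 3.05 and 5.38 FPKM in ΔRRE. The ΔRRE libraries lay within the range of the WT libraries for *Csf1r*, and for *Clec4f* apart from its highest value.

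The chains of C1q behaved in the same way. *C1qa* was at 6.12, 16.4 and 30.0 FPKM (lowest, median and highest) in WT and at 10.8, 15.5 and 27.1 FPKM in ΔRRE. *C1qb* was at 4.09, 12.4 and 22.9 FPKM in WT and at 9.71, 12.35 and 19.3 FPKM in ΔRRE, and *C1qc* at 4.28, 12.5 and 21.4 FPKM in WT and at 8.01, 11.5 and 20.0 FPKM in ΔRRE. The ΔRRE range lay inside the WT range for all 3 chains.

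*Vsig4* was at 1.597, 5.40 and 11.5 FPKM in WT and at 3.25, 5.603 and 9.72 FPKM in ΔRRE. *Cd5l* was at 4.42, 12.9 and 27.6 FPKM in WT and at 7.84, 12.2 and 20.7 FPKM in ΔRRE. Here too the WT libraries held both the lowest and the highest value. *Adgre1* was at 0.7285, 1.63 and 4.09 FPKM in WT and at 1.025, 1.93 and 2.73 FPKM in ΔRRE, and *Timd4* was at 0.239, 1.065 and 2.55 FPKM in WT and at 0.602, 1.12 and 1.93 FPKM in ΔRRE.

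*Marco* had the widest range, from 0.920 to 39.0 FPKM with a median of 4.36 in WT, and from 2.43 to 8.19 FPKM with a median of 4.75 in ΔRRE. The value of 39.0 FPKM came from 1 library, WT CT6 replicate 1, and the next highest of all libraries was 10.1 FPKM. In that library *Marco* made up 25.03% of the summed level of the 10 genes, against 6.58% on average over the 24 libraries.

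**Figure D1:**
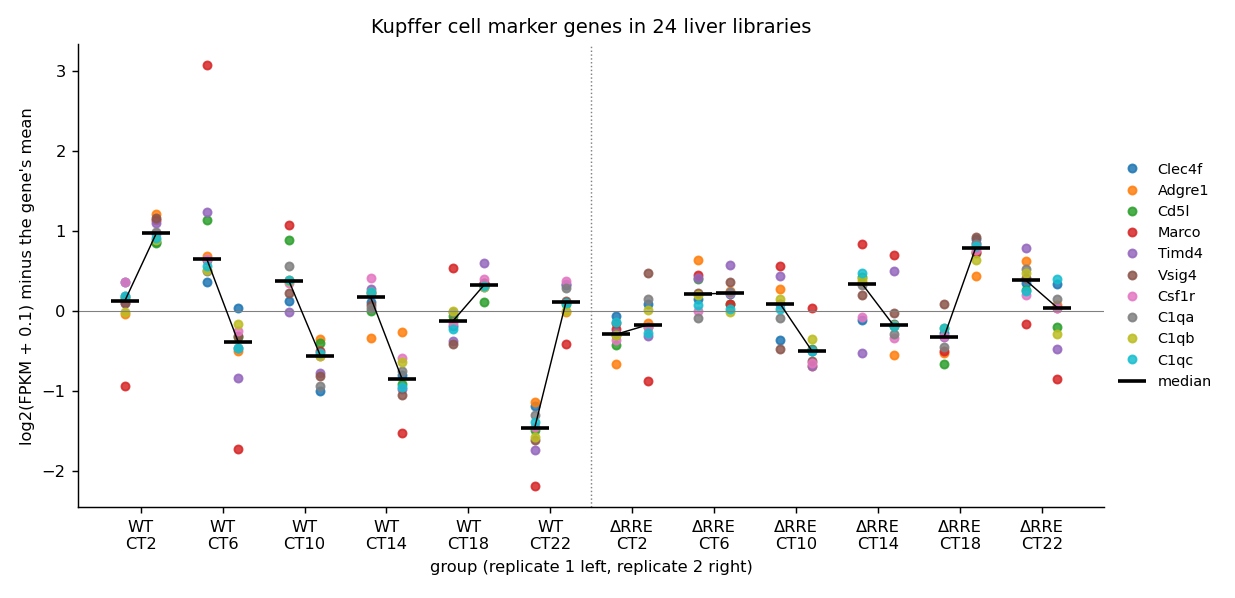
Level of each of the 10 genes in each of the 24 libraries, as log2(FPKM + 0.1) minus the mean of the gene over all libraries. Coloured points are genes, black bars the median of the 10 in a library, and lines join the 2 libraries of a group. All 10 points lie lowest in replicate 1 of WT CT22, and *Marco* stands far above the others in replicate 1 of WT CT6.

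The same few libraries were extreme for most of the genes. WT CT22 replicate 1 held the lowest value of each of the 10 genes over all 24 libraries. The highest value came from WT CT2 replicate 2 for *Adgre1*, *Vsig4*, *Csf1r*, *C1qa*, *C1qb* and *C1qc*, from WT CT6 replicate 1 for *Cd5l*, *Marco* and *Timd4*, and from ΔRRE CT18 replicate 2 for *Clec4f*. In bulk RNA, fewer Kupffer cells in the tissue sampled and less of these transcripts per cell cannot be told apart.

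Most of this variation lay between libraries of the same genotype and time point. The SD within such pairs of libraries, on the log2 scale, was 0.61 in the median of the 10 genes and ran from 0.52 for *Clec4f* to 1.27 for *Marco*, against a median of 0.25 over the 11244 genes tested and of 0.26 over the 7924 tested genes with levels in the range of the members. Within-pair differences made up 65.4% of the variance of a member in the median, and 41.9% for all genes tested. These are shares of summed squares over 12 groups of 2 libraries. A gene without any effect of genotype or time point would also have a large share.

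Within a pair, the genes moved the same way. In 6 of the 12 groups (WT CT2, CT6, CT10 and CT22, ΔRRE CT10 and CT18) all 10 genes were higher in the same library of the pair. In another 4 groups (WT CT14 and CT18, ΔRRE CT14 and CT22) 9 of 10 were, and in ΔRRE CT2 and CT6 it was 7 and 5. The median ratio between the libraries of a pair was 3.02-fold in WT CT22, 2.22-fold in ΔRRE CT18 and 1.17-fold in ΔRRE CT6. At WT CT22 *Clec4f* was at 5.10 and 14.7 FPKM, *C1qa* at 6.12 and 18.4 FPKM, and *Csf1r* at 1.08 and 4.11 FPKM. At ΔRRE CT18 the same genes were at 9.65 and 22.0, at 11.01 and 27.1, and at 2.50 and 5.38 FPKM. The higher library of the pair was replicate 2 in both groups and for all 3 genes.

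The spread between paired libraries was wider in WT than in ΔRRE for each of the 10 genes. The within-pair SD on the log2 scale was 0.75 in WT and 0.44 in ΔRRE in the median of the members, and 0.24 and 0.23 over all genes tested, of which 52.7% had the larger value in WT. *Marco* differed most, with 1.73 in WT and 0.49 in ΔRRE, and *Adgre1* least, with 0.64 and 0.53. The 10 genes rise and fall together and there are 6 pairs per genotype, so these are few independent values, and the difference in spread was not tested.

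Across the 24 libraries every pair of members was positively correlated. Over the 45 pairs, Pearson's r on log2(FPKM + 0.1) had a median of 0.837 and ran from 0.473 (*Clec4f* with *Marco*) to 0.932 (*C1qa* with *C1qc*), and Spearman's rho had a median of 0.775, from 0.354 to 0.913. Over all pairs of genes tested the median r was 0.032, and 0.0199% of these pairs reached the median of the members. With 100000 permutations and Benjamini-Hochberg adjustment over the 45 pairs, the adjusted p of r ran from 1.36e-05, where the unadjusted p was the smallest the permutations can give, to 0.0194. Only rho of *Clec4f* with *Marco* missed 0.05 (permutation, adjusted p = 0.0893).

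The correlation was about as strong with time of day and genotype removed, and with the libraries rescaled. Taken over deviations from the mean of each group of 2, the median r was 0.872, and after the libraries were rescaled by the median of ratios it was 0.828. Without the 2 libraries farthest from the median of the gene on the x axis it was 0.754, with *Clec4f* and *Marco* at 0.316. This pair had an r of 0.473 over all libraries and of 0.629 over deviations from the group means. Within WT its r was 0.593, and within ΔRRE 0.010. The median r was 0.916 within the 12 WT libraries and 0.659 within the 12 ΔRRE libraries, and the difference between the genotypes was not tested.

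**Figure D2:**
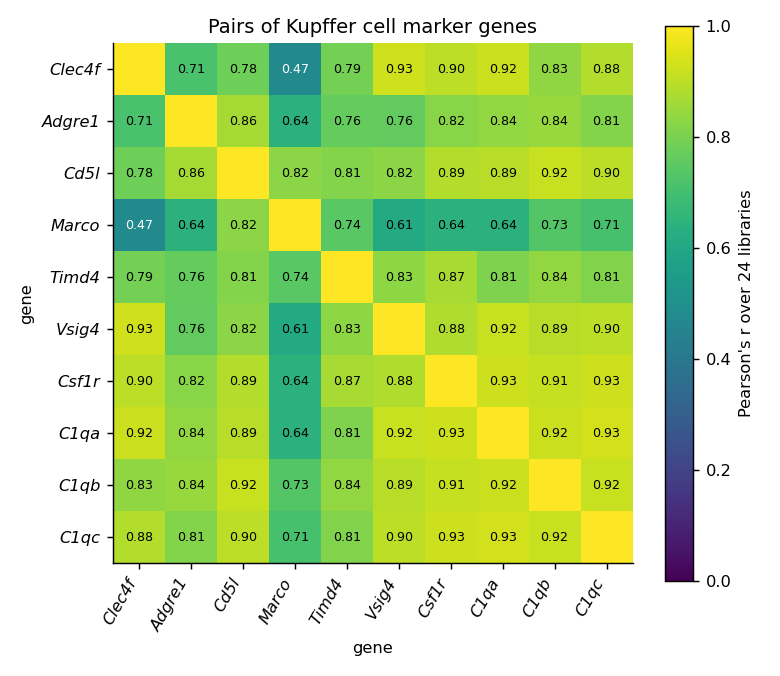
Pearson's r of log2(FPKM + 0.1) over the 24 libraries for each of the 45 pairs of genes, with the value written in the cell and a colour scale from 0 to 1. *Marco* has the weakest relations, from 0.473 with *Clec4f* to 0.825 with *Cd5l*, and the C1q genes and *Csf1r* the strongest.

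The C1q chains kept close to one another and to *Clec4f*. Their levels, which FPKM makes comparable per length, stood at a median of 1.22 for *C1qa* over *C1qb*, with a range from 0.939 to 1.66, and at 1.08 for *C1qb* over *C1qc*, from 0.673 to 1.35. *C1qa* over *Clec4f* had a median of 1.28 and ran from 0.912 to 1.76, while the summed level of all 10 changed 5.45-fold between the lowest and highest library. *Marco* over *Clec4f* ran from 0.109 to 2.595, both ends in the libraries of WT CT6.

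*Marco* was the member least like the rest. Its r with the mean of the other 9 was 0.715, whereas the other members lay between 0.851 (*Adgre1*) and 0.951 (*C1qb*). In WT CT6 it stood at 39.0 and 1.31 FPKM, 29.7-fold apart, while *Clec4f* in the same libraries was at 15.02 and 12.02 FPKM. *Cd5l*, at 27.6 and 9.99 FPKM, and *Timd4*, at 2.55 and 0.533 FPKM, were also further apart there than *Clec4f*.

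The genes most like the mean of the members included many known from macrophages and other myeloid cells. Ranked by Pearson's r over 24 libraries among the 11234 other genes tested, the first 10 were *Cfp* (properdin, r = 0.922), *Ctss* (a lysosomal protease, 0.909), *Sdc3* (a syndecan, 0.908), *Laptm5* (a lysosomal protein of blood cells, 0.905), *Tmsb4x* (thymosin beta-4, 0.874), *Lyz2* (lysozyme, 0.873), *Msn* (moesin, 0.854), *Wfdc17* (0.852), *Cybb* (a subunit of the phagocyte NADPH oxidase, 0.851) and *Folr2* (a folate receptor of resident macrophages, 0.844). Of these, *Cfp*, *Ctss*, *Laptm5*, *Lyz2* and *Folr2* are also on the list of other macrophage genes described next. In all, 16 genes reached an r of 0.8 and 33 an r of 0.7, and none lay at -0.7 or lower. The median r of the 11234 genes was 0.074, and 2.27% exceeded 0.5.

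A list of 20 other macrophage genes followed the members closely. Of its genes 17 were tested, and 12 of these had an r over 0.5 with the mean of the members, with a median of 0.749. The mean of the standardised levels of the list had an r of 0.965 with that of the members over 24 libraries, and of 0.969 over deviations from the group means. *Cfp* ranged from 2.09 to 9.19 FPKM, *Ctss* from 2.71 to 14.8 FPKM, and *Lyz2*, the highest of the list, from 10.3 to 45.8 FPKM. *Spi1*, which encodes PU.1, had an r of 0.729 and ranged from 0.369 to 2.20 FPKM.

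Some genes of that list followed the members less closely. *Mertk*, a receptor for dying cells, had an r of 0.140. *Mpeg1*, which encodes perforin-2, had an r of 0.414 and a 24-h rhythm shared by both genotypes, with an amplitude of 0.43 on the log2 scale (limma, adjusted p = 0.0157).

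Genes of hepatocytes, stellate cells and bile ducts followed the members weakly across libraries. The hepatocyte list (7 genes tested) had an r of 0.120 with the members, the stellate cell and fibroblast list (8 genes) 0.134, and the cholangiocyte list (3 genes) 0.122. Over deviations from the group means these were 0.466, 0.060 and 0.062. None of the genes on these 3 lists reached an r of 0.5, and *Alb* had an r of 0.234. In WT CT22 replicate 1, which held the lowest levels of the members, the mean standardised level (each gene scaled to a mean of 0 and an SD of 1 over the libraries) was -2.47 for the members, -1.76 for the other macrophage list and -0.76 for the sinusoidal endothelial list, but 0.02 for hepatocyte genes and 0.68 for stellate cell genes.

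Sinusoidal endothelial genes moved partly with the members. The 14 genes of this list, of which *Clec4g* was the highest at 14.8 FPKM, had an r of 0.542 as a list, and of 0.720 over deviations from the group means. *Mrc1*, the mannose receptor, which Kupffer cells also carry, was the nearest at 0.671, *Clec4g* had 0.559 and *Cdh5* (VE-cadherin) 0.540, and *Lyve1* was the farthest at 0.056. The list had an r of 0.804 in the 12 WT libraries and of 0.033 in the 12 ΔRRE libraries, and this difference was not tested. The scale of the libraries moved with the members as well. The r was 0.511 for the median-of-ratios factor and -0.441 for the total FPKM. Over deviations from the group means these were 0.619 and -0.659. The median r of pairs of members after rescaling was 0.828, as given above.

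Markers of macrophages newly derived from monocytes were near 0. *Ccr2* averaged 0.199 FPKM, *Ly6c2* 0.198 FPKM, *Cx3cr1* 0.176 FPKM and *Trem2* 0.0456 FPKM, and 8 of the 10 genes of that list had a mean under 1 FPKM. The other 2, *Fn1* at 248 FPKM, which hepatocytes also make, and *Plac8* at 3.17 FPKM, had an r of -0.046 and 0.396. None of the 11 lymphocyte genes and none of the 5 dendritic cell genes reached a mean of 1 FPKM, the highest being *Ptprc* at 0.812 FPKM and *Clec9a* at 0.5245 FPKM. Of 8 neutrophil genes only *S100a9* did, at 1.39 FPKM with an r of 0.456.

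**Figure D3:**
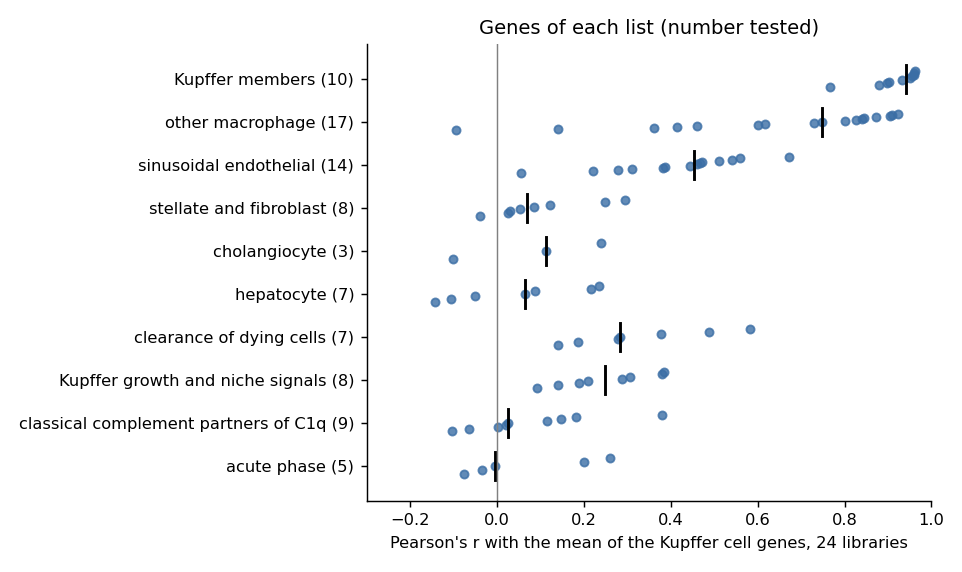
Pearson's r of each tested gene with the mean of the 10 Kupffer cell genes over 24 libraries, by list, with the number of genes tested in parentheses and a black bar at the median of the list. Other macrophage genes sit mostly over 0.5 (median 0.749), sinusoidal endothelial genes lie between 0.056 and 0.671, and hepatocyte, stellate cell, cholangiocyte and acute phase genes lie around 0.

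Genes for signals that keep Kupffer cells in place followed them less closely than macrophage genes, one by one. As a list they had an r of 0.479 with the members, and of 0.786 over deviations from the group means. *Csf1*, a ligand of the CSF1 receptor, ranged from 1.16 to 3.88 FPKM with an r of 0.385, and *Il34*, the other ligand, averaged 0.692 FPKM and was not tested. *Gdf2* (BMP9) had an r of 0.306, *Tgfb1* 0.380 and *Smad4* 0.092. *Nr1h3* (LXRα), which Kupffer cells need and which hepatocytes also express, stood at 36.3 FPKM on average with an r of 0.210, and *Id3*, the highest gene of the list at 46.0 FPKM, had an r of 0.189. Of the 8 genes tested none reached 0.5, and 3 had a shared rhythm: *Nr1h3* (amplitude 0.16, adjusted p = 0.00636), *Id3* (0.91, adjusted p = 0.007185) and *Gdf2* (0.32, adjusted p = 0.0186), all by limma, against 30.6% of all genes tested.

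The plasma components that act with C1q followed the members weakly. The 9 partners and regulators, mostly products of hepatocytes, had r between -0.103 (*C1s1*) and 0.380 (*C4bp*), with a median of 0.024, and as a list an r of 0.143. *C1s1*, a protease of the C1 complex, ranged only from 118 to 194 FPKM, and *C3*, the highest of the list, from 895 to 2328 FPKM. The 7 genes for the clearance of dying cells had an r of 0.663 as a list. Among them, *Gas6*, a bridging ligand of dying cells, had the highest r at 0.583 and *Axl*, one of its receptors, had 0.487, and *Pros1*, the highest at 20.6 FPKM, had 0.185.

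Several genes of neighbouring cells passed the test for a shared 24-h rhythm, as did 30.6% of all genes tested, while no member did. The counts of the lists below stand beside this share and were not tested against it. Among sinusoidal endothelial genes 5 of 14 passed the test, against 30.6% of all genes: *Cdh5* (amplitude 0.43 on the log2 scale, adjusted p = 0.00259), *Dnase1l3* (0.42), *Clec4g* (0.29), *Oit3* (0.33) and *Stab2* (0.28), with adjusted p up to 0.0328. Among stellate cell and fibroblast genes 4 of 8 passed, namely *Ecm1* (0.40), *Lrat* (0.53), *Reln* (0.36) and *Dcn* (0.32), the highest of that list at 37.8 FPKM, with adjusted p from 0.00678 to 0.0283. Of 3 cholangiocyte genes *Sox9* (0.66) and *Krt19* (0.48) passed and *Spp1*, the highest at 23.5 FPKM, did not. Of 7 hepatocyte genes *Hnf4a* (0.19), *Ttr* (0.19) and *Apoa1* (0.14) passed. Of the partners of C1q, *C1rl* (0.22) and *C2* (0.26) passed, of the clearance genes *Pros1* (0.35) and *Stab2*, and of the monocyte list *Fn1* (0.22). Within 1 genotype, *C1rl* (adjusted p = 0.0188) and *Id3* (adjusted p = 0.0189) passed in WT, where 10.3% of all genes tested did. All these p-values are from limma.

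Cytokines of activated macrophages were scarce. *Tnf* averaged 0.0335 FPKM, *Il1b* 0.491 FPKM and *Il6* 0.00481 FPKM, and *Il6* was listed at 0 in 22 of the 24 libraries. The chemokine gene *Cxcl1*, which hepatocytes also make, was the only 1 of 10 with a mean over 1 FPKM, at 9.41 FPKM, and had an r of 0.575. The 5 acute phase genes had an r of 0.073 as a list, with *Hp* (haptoglobin) highest at 2186 FPKM.

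No member passed the test for a difference in mean level between the genotypes. In a limma model with time point as a factor, 0 of the 10 genes had an adjusted p under 0.05 (adjusted over all 11244 genes), and 0 had an unadjusted p under 0.05. Over all genes tested the share called was 0% and 8.91% had an unadjusted p under 0.05, with a smallest adjusted p of 0.332. Labels do not state that the 2 libraries of a group came from separate animals, so these p-values measure the spread between the samples as given. The fitted difference, ΔRRE minus WT on the log2 scale, was positive for 8 genes and negative for 2, with a median of 0.10 against 0.04 over all genes. Most genes leaned the same way, with 7362 of the 11244 tested positive.

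The 95% intervals of these differences were wide. *Vsig4* had the largest fitted difference at 0.25 (95% interval from -0.22 to 0.71, adjusted p = 0.816 by limma), followed by *Timd4* at 0.17 (from -0.46 to 0.80) and *Marco* at 0.14 (from -0.75 to 1.03). *Clec4f* differed by 0.10 (from -0.28 to 0.49, adjusted p = 0.923 by limma) and *Csf1r* by -0.10 (from -0.54 to 0.35). *C1qa*, *C1qb* and *C1qc* lay at 0.09, 0.10 and 0.13, and *Adgre1* and *Cd5l* at 0.02 and -0.02. In a two-sided exact permutation test of the genotype labels within each time point (46656 divisions), p ran from 0.338 for *Vsig4* to 0.944 for *Adgre1*.

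**Figure D4:**
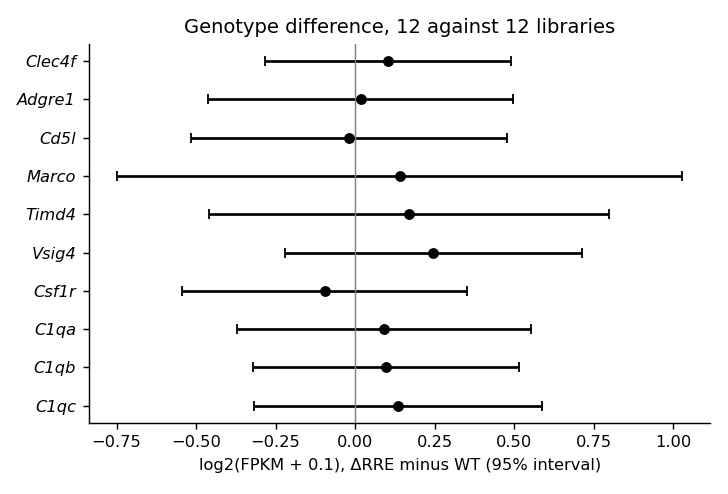
Fitted difference between ΔRRE and WT for each gene on the scale of log2(FPKM + 0.1), from 12 against 12 libraries, with 95% intervals from limma. All 10 intervals include 0, and that of *Marco* is the widest, from -0.75 to 1.03.

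The sign of the members' median difference turned on 1 library. Without WT CT22 replicate 1 the median difference of the 10 genes was -0.03 instead of 0.10, and 2 genes were positive and 8 negative. The summed level was 148 ± 72.2 TPM in WT and 147 ± 37.6 in ΔRRE (SD, n = 12 each), a ratio of 0.991, which ranged from 0.933 to 1.08 when single libraries were left out. After rescaling by the median of ratios, the differences of *Adgre1*, *Cd5l* and *Csf1r* were negative and those of the other 7 positive, with a median of 0.06, where the median over all genes was -0.0016.

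The genotypes were also compared at single time points, with 2 libraries against 2. At CT2, 7 of the 10 genes (all but *Marco*, *Vsig4* and *C1qb*) were lower in both ΔRRE libraries than in both WT libraries. Of all genes tested, 10.9% were lower in this way and 29.6% did not overlap in one direction or the other. At CT22, 3 genes (*Clec4f*, *Adgre1* and *C1qc*) were higher in both ΔRRE libraries. Of all genes, 21.7% were higher in this way and 37.1% were apart in either direction. The members rise and fall together, so their counts rest on few independent values and were not tested against these shares. At CT14 only *Marco* was apart, being higher in ΔRRE, with 28.4% of all genes apart, and at CT6, CT10 and CT18 no member was, with 28.0%, 32.7% and 31.2% of all genes apart. The summed level at CT2 was 147 and 267 TPM in WT and 117 and 136 in ΔRRE, and at CT22 it was 48.0 and 147 in WT and 173 and 142 in ΔRRE. At CT2 the WT libraries differed from each other by more than the lower of them differed from either ΔRRE library.

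The members had no 24-h rhythm that passed the test. In a cosine fit to the 12 WT libraries 0 of 10 genes were called at an adjusted p under 0.05, where 10.3% of all genes tested were, and in the 12 ΔRRE libraries 0 of 10, where 4.57% were. In the fit of a shared rhythm to all 24 libraries 0 of 10 were called, against 30.6% of all genes. The rhythm differed between the genotypes for 0 of 10, against 0.00889% of all genes, which is *Bmal1* alone in this fit. At an unadjusted p under 0.05, the counts were 0 of 10 in WT, 1 of 10 in ΔRRE, 0 of 10 for the shared rhythm and 0 of 10 for the difference, where the shares of all genes tested were 27.6%, 22.6%, 42.1% and 2.84%.

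The 1 gene in ΔRRE was *Marco*, with a fitted amplitude of 0.62 on the log2 scale and a peak at CT12.2 (limma, adjusted p = 0.0882). *Clec4f* came nearest to a shared rhythm, with an amplitude of 0.27 and a peak at CT0.36 (limma, adjusted p = 0.258), and the amplitudes of the other 9 ranged from 0.06 for *C1qb* to 0.48 for *Marco*. Without WT CT22 replicate 1, *Clec4f* passed the test for a shared rhythm (limma, adjusted p = 0.0255). Amplitudes of the members had a median of 0.16, and those of all genes tested a median of 0.17, while the within-pair SD of the members was 0.61 against 0.25.

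**Figure D5:**
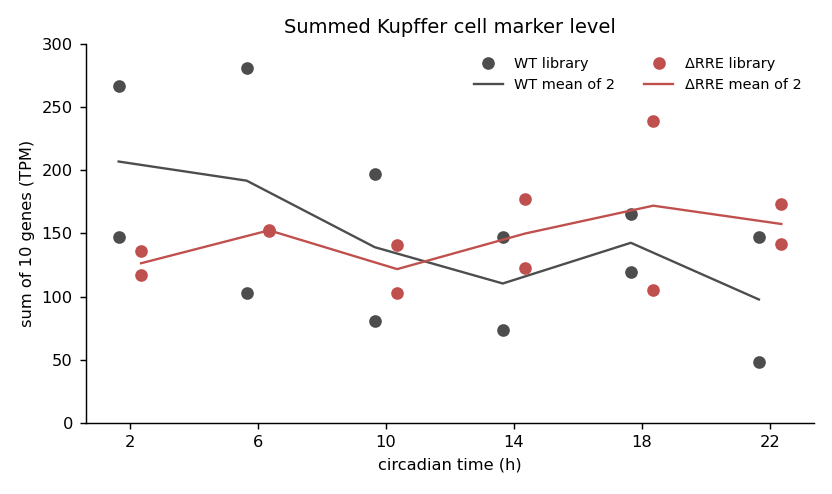
Sum of the 10 genes in TPM (vertical axis, from 0) against circadian time in hours for each of the 24 libraries, WT in grey and ΔRRE in red, with lines through the mean of the 2 libraries of each group. Libraries of a group lie up to 281 against 103 apart at WT CT6, and the genotypes are separate only at CT2.

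Seen by time point over both genotypes, the summed level averaged between 127.5 TPM at CT22 and 172 at CT6, with an SD over the 4 libraries of a time point from 43.7 at CT14 to 76.3 at CT6. The lowest library of a time point lay between 48.0 and 117 TPM and the highest between 173 and 281, so that the time points overlapped throughout.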

How the data were processed

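RNA-seq of poly(A)-tailed liver RNA was analysed in 24 libraries (12 WT, 12 ΔRRE; 2 per genotype and time point), grouped by the labels. The authors deposited the FPKM of each gene in each library, without pooling, and a table of the series with the same values was not used. The submitters' processing notes name Trimmomatic 0.39, HISAT2 2.1.0, StringTie 1.3.5 and the build mm10. Counting error is not given, since read counts were not used here.

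Values were analysed as log2(FPKM + 0.1), which understates changes of low genes, for genes averaging 1 FPKM or more over the libraries (11244 of 54733). Models across all these genes used limma 3.58.1 (R 4.3.3) with an intensity-dependent prior and Benjamini-Hochberg adjustment: genotype with time point as a factor, and a 24-h cosine and sine in each genotype, shared by both, and differing between them. Correlations and permutations used Python 3.11.15 and SciPy 1.17.1, and figures matplotlib 3.10.9. The main fits were tested on simulated data of 11244 genes, 200 of them changed, each with its own spread. The filter and the alternatives were not tested this way. At a change of 0.5 on the log2 scale, the genotype fit found 66% of changed genes and the shared rhythm fit 80.5%. The fits of WT and ΔRRE alone found 47% and 46.5%, and that of a differing rhythm 27%. At a change of 1 they found between 77% and 97.5%. Recovery at the wider spread of the members was not computed. Coordinates are from GENCODE M21 and promoters from RefSeq, both on GRCm38.

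The members and the 14 other gene lists were chosen with earlier results of these data known. Genes named are the members, *Bmal1*, the 10 other genes most like the members, and, from each list, the highest gene and up to 5 called genes. The values of 1 gene of the other macrophage list are not reported here, though it counts in that list's totals. Other list genes, named for their role, their r or a level near 0, were chosen after their values were seen. Alternatives were 1 or 0.01 FPKM added before the logarithm, no filter, a filter at 5 FPKM, rescaling by the median of ratios, a prior without trend, the replicate number as a block, the time point as a factor, other forms of the summed level (in TPM, the FPKM scaled to a common total), and leaving out each library.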

Additional observations from a re-analysis of the deposited data

Results flagged for a closer look

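For *Clec4f*, *Adgre1* and *C1qc*, both ΔRRE libraries lay above both WT libraries at CT22 and below both at CT2. Of all genes tested, 29.6% were apart at CT2 and 37.1% at CT22, in either direction. At both, 2.17% showed this same pattern, and 4.97% were apart in opposite directions either way. A member was flagged if its genotypes lay apart in opposite directions at any 2 of the 6 time points. The share of all genes meeting that rule was not computed. The members rise and fall together, so the 3 genes are few independent values. The difference between these 2 effects (ΔRRE minus WT at CT22, less the same at CT2) was 1.37 on the log2 scale for *Clec4f*, 1.92 for *Adgre1* and 1.72 for *C1qc*. The difference between CT22 and CT2 alone was not tested. In limma's test of genotype by time point over all 6 time points, the adjusted p was 0.9999 for each of the 3 genes. The WT side of CT22 includes the library with the lowest level of every member, and WT CT2 includes the library with the highest level of *Adgre1* and *C1qc*.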

How the results depend on the processing

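Of 516 alternative values, 31 were of the median genotype difference and 27 of the ratio of summed levels, neither of which has a test. All of these moved by less than 1 SD within pairs. That SD is of single libraries, whereas the values rest on means over 12 libraries per genotype. The limit was therefore wide, and staying within it says little about stability. The median changed sign in 1 and the ratio rose above 1 in 9. Of the rest, 431 were unchanged, which means the same direction and side of the threshold. For the median correlation, which had no threshold, it means a value near the main one. A further 26 single-gene differences changed sign without passing the test, and 1 count changed. The count of members with a shared rhythm went from 0 to between 0 and 1 when single libraries were left out. The 1 was *Clec4f* without WT CT22 replicate 1, and the cause was not tested. Rescaling by the median of ratios turned the genotype difference of *Adgre1* to -0.0192. With 1 library left out, the range was -0.10 to 0.15 for *Adgre1*, -0.16 to 0.0812 for *Cd5l*, -0.11 to 0.45 for *Marco*, -0.0247 to 0.17 for *Clec4f*, -0.0457 to 0.19 for *C1qa*, -0.0415 to 0.19 for *C1qb* and -0.0023 to 0.23 for *C1qc*. *Csf1r* (-0.25 to -0.01), *Timd4* (0.01 to 0.29) and *Vsig4* (0.10 to 0.35) kept their sign. The median difference of the members ran from -0.03 to 0.19, and the median correlation from 0.781 to 0.858. The ratio of the summed levels was 0.947 without the C1q genes, 0.956 after rescaling and 1.10 for the geometric mean.

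With a mean of at least 5 FPKM required, 7 of the 10 members were tested. With the replicate number as a block, 0 of the 10 members differed between the genotypes and the median difference was 0.10, as without it. Deviations of same-numbered libraries from their group means correlated with a median r of 0.067 over 66 pairs of groups, from -0.138 to 0.305. Of these, 20 exceeded 0.1. The numbers were not taken to pair the libraries, and whether they mark a batch was not tested. With the block, *Bmal1* had an adjusted p of 0.0771 for a differing rhythm (limma), and no gene was called. The block changed no other count of members. Having 2 libraries per group limits what can be tested at a single time point, and low FPKM have an unknown counting error.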
